A study of Mus musculus with 37 samples.

Results

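The genes described here are 9 regulators, secreted signals and endocytic components of the visceral endoderm: Hnf4a, Sox17, Hhex, Cer1, Lefty1, Dkk1, Amn, Cubn and Dab2. They were chosen by gene symbol as known genes of this tissue, with a rule that reads no measured value although earlier results of these data were known, and all 9 were found among the 55401 genes listed in the table of embryonic day 6.5. The samples come from a study of BAP1, a nuclear deubiquitinase that removes ubiquitin from histone H2A, in mouse oocytes and the embryos derived from them. At embryonic day 6.5, visceral endoderm and epiblast each had 2 control and 2 maternal knockout libraries, and extraembryonic ectoderm had 1 control and 2 maternal knockout libraries, all made from poly(A) RNA. A further 26 libraries held total RNA. Fully grown oocytes (labelled FGO), ovulated eggs in metaphase II (MII) and embryos at the late 1-cell (L1C) and late 2-cell (L2C) stage had 2 controls and 3 knockouts each, and embryos at the early 2-cell stage (E2C) had 3 of each.

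Control females carried Bap1 flox/flox alleles, and knockout females carried Bap1 flox/flox together with Gdf9-iCre, a recombinase expressed from an oocyte promoter. The 1-cell and 2-cell embryos were sired by B6 males and the day 6.5 embryos by PWK males, so every embryo inherited a wild-type paternal Bap1 allele, and the knockout removed the maternal supply and the maternal allele. Embryos of both genotypes therefore shared the flox allele or its recombined form and a hybrid background at day 6.5. Bap1 itself was between 14.0 and 33.8 FPKM (fragments scaled by gene length and library size, a level that can be compared between genes) in the 11 day 6.5 libraries, at 14.0 and 15.6 FPKM in control and 18.3 and 19.4 FPKM in knockout visceral endoderm. In the total RNA libraries, which were normalized separately, Bap1 was between 16.3 and 29.9 FPKM in controls and between 3.76 and 11.7 FPKM in knockouts. The labels do not say that replicates came from separate litters or animals, so the p-values given here measure the spread between libraries, which may be technical.

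The visceral endoderm is the epithelium that wraps the epiblast and extraembryonic ectoderm of the egg cylinder. It takes up maternal nutrients by endocytosis, and at its distal and then anterior side it secretes antagonists of Nodal and Wnt signalling that help set the head end of the embryo. Among the members, HNF4A is a nuclear receptor needed for the secretory function of this tissue, SOX17 is an endoderm transcription factor and HHEX is a homeobox factor of the anterior visceral endoderm. CER1 and LEFTY1 antagonize Nodal, and DKK1 antagonizes Wnt by binding the LRP5 and LRP6 co-receptors. Amnionless and cubilin, encoded by Amn and Cubn, form the receptor cubam, and DAB2 is a clathrin adaptor that brings such receptors into coated pits.

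The sequences before the start sites of the members are shown because 8 of the 9 genes shared one lineage pattern in these data. RefSeq promoters of build GRCm38.p6 were found for 7 members, with 9 start sites in all. Lefty1 and Sox17 are named only. In the 250 bases before each start, 6 short words known from factors of the endoderm were searched on both strands. The word for the GATA factors was AGATAA, the word for HNF4 was CAAAGTC, the word for the FOXA factors was TGTTTAC, the word for the SOX factors was ACAATGG, the word for the OTX factors was TAATCC, and the word for FOXH1 was AATCCACA. The sequences below read 5′ to 3′ on the strand of the gene, and capitals mark the words that matched. Hnf4a and Dab2 each have a far and a near start site, and Cubn is shown as a member with no match.
Hnf4a start site 1, chr2:163506607-163506856, plus strand: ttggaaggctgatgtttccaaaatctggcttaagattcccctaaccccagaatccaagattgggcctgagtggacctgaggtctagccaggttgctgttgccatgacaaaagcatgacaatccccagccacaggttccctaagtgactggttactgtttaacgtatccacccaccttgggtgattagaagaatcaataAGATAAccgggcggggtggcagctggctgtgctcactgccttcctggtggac
Dkk1, chr19:30549497-30549746, minus strand: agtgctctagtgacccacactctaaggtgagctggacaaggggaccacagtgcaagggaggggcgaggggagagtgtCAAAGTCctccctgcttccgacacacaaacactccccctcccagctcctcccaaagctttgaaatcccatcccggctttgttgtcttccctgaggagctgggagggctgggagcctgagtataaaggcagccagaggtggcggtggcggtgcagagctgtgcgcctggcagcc
Cubn, chr2:13491877-13492126, minus strand: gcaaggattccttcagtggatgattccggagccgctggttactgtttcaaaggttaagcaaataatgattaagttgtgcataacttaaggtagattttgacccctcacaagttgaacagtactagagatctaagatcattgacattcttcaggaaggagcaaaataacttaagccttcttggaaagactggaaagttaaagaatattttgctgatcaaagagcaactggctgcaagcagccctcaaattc

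The GATA word stood 52 bases before start site 1 of Hnf4a, and the HNF4 word stood 173 bases before the start of Dkk1. Among 32851 promoters of the table, 9.99% held the GATA word and 3.84% the HNF4 word, so these matches are a description of the letters and not binding sites. None of the 6 words was in the windows of Hhex, Cer1, Amn, Cubn, Dab2 or the second start site of Hnf4a. The members also differed in base composition. Hhex had 76.0% G and C in its window and a ratio of observed to expected CpG of 0.91, whereas Dab2 start site 1 had 36.8% G and C and a ratio of 0.24, against medians of 52.4% and 0.37 over all promoters.

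Before the members were compared, the labelled tissues were checked against marker genes. The summed level of 8 visceral endoderm markers (Ttr, Afp and apolipoprotein genes among them) was 9768 to 19935 FPKM in the visceral endoderm libraries and at most 424 FPKM in the other lineages. Most of the latter was Apoe, which alone reached 410 FPKM in extraembryonic ectoderm and 205 FPKM in epiblast. The summed level of 8 epiblast markers was 1437 to 2253 FPKM in epiblast and 142 to 232 FPKM in visceral endoderm. In visceral endoderm, 3 of the 8 were at or above 1 FPKM in every library. Utf1 was at 39.0 to 119.7 FPKM there, Dnmt3b at 61.1 to 93.2 FPKM and Fgf5 at 8.65 to 38.5 FPKM. The other epiblast markers were under 1 FPKM there, with Pou5f1, the defining pluripotency factor, at most 0.21 FPKM. The summed level of 8 extraembryonic ectoderm markers was at most 9.79 FPKM in visceral endoderm. Parietal endoderm, the neighbouring sister tissue, shares many genes with visceral endoderm. Its 9 markers summed to 795 to 1439 FPKM in the visceral endoderm libraries. Sparc was at 406 to 606 FPKM there, Srgn at 209 to 589 FPKM and Pth1r at 87.9 to 121 FPKM. Col4a1, Col4a2, Lamb1 and Lama1 lay between 5.17 and 54.0 FPKM, and Thbd and Plat were at most 1.37 and 3.83 FPKM. Maternal decidua markers summed to at most 2.78 FPKM there, and blood markers to at most 22.6 FPKM, in knockout replicate 1. Summed Y-linked transcripts lay between 25.9 and 68.0 FPKM in the libraries numbered 1 among controls and 2 among knockouts, for each lineage, and were at 0 in the other day 6.5 libraries.

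**Figure D1:**
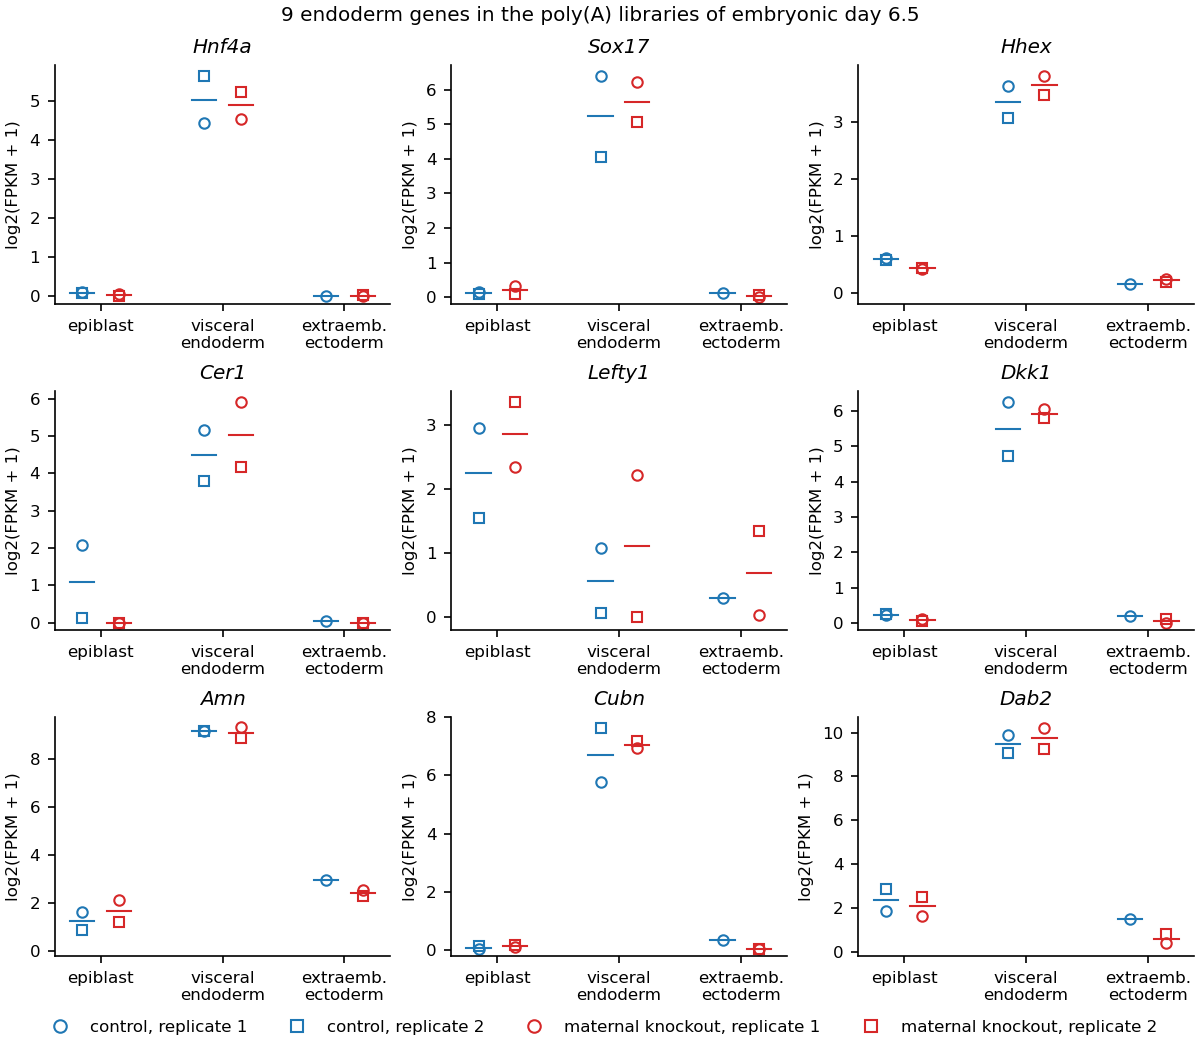
Level of each of the 9 genes, as log2(FPKM + 1), in every day 6.5 library, with circles for replicate 1, squares for replicate 2 and bars for the mean of the group. For 8 genes every visceral endoderm library lies above every epiblast and extraembryonic ectoderm library, and for Lefty1 the epiblast means are the highest.

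The first comparison asked how far the members were restricted to the visceral endoderm. Hnf4a, Sox17, Hhex, Cer1, Dkk1, Amn, Cubn and Dab2 were higher in visceral endoderm than in epiblast and than in extraembryonic ectoderm, with no overlap between libraries, and Lefty1 was lower in visceral endoderm than in epiblast. The 8 genes passed the test in both comparisons (limma on log2(FPKM + 1), Benjamini-Hochberg adjusted p under 0.05 over 13914 genes). Of all genes tested, 16.8% were called higher in visceral endoderm than in epiblast and 21.6% lower, 11.3% were called higher than in extraembryonic ectoderm, and 16.7% were higher without overlap in each comparison. The members were picked as visceral endoderm genes, so their direction is no independent evidence about the tissue. Outside visceral endoderm, Hnf4a, Sox17, Hhex, Dkk1 and Cubn stayed under 1 FPKM, and Cer1 exceeded it only in control replicate 1 of epiblast. These genes thus passed the filter on low values (1 FPKM or more in at least 2 libraries) only through visceral endoderm. Their p-values in these comparisons describe the difference and give no separate support. A bulk library cannot tell fewer cells of a type from less RNA per cell.

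Hnf4a (chromosome 2, 163506808 to 163572910, plus strand, GENCODE M21 on GRCm38) was at 20.5 and 48.3 FPKM in control and at 22.3 and 36.6 FPKM in knockout visceral endoderm. It was at most 0.071 FPKM in epiblast and at most 0.016 FPKM in extraembryonic ectoderm. The log2 fold change on the log2(FPKM + 1) scale was 4.90 ± 0.30 (SE) against epiblast, with a limma adjusted p of 3.05e-06. In visceral endoderm replicate 2 was the higher library in both genotypes.

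Sox17 (chromosome 1, 4490931 to 4497354, minus strand) was at 82.5 and 15.7 FPKM in control and at 73.5 and 32.4 FPKM in knockout visceral endoderm, against at most 0.25 FPKM in the other lineages. Here replicate 1 was the higher library in both genotypes, the reverse of Hnf4a. The log2 fold change against epiblast was 5.26 ± 0.47 (SE; limma adjusted p = 2.69e-05).

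Hhex (chromosome 19, 37434810 to 37440731, plus strand) was the least restricted of the transcription factors. It was at 11.3 and 7.38 FPKM in control and at 13.0 and 10.1 FPKM in knockout visceral endoderm. In epiblast it was at 0.52 and 0.49 FPKM in control and 0.34 and 0.36 FPKM in knockout, and in extraembryonic ectoderm at most 0.19 FPKM. Its log2 fold change against epiblast, 2.98 ± 0.22 (SE; limma adjusted p = 8.87e-06), was the smallest of the 8 genes.

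Cer1 (chromosome 4, 82881751 to 82885148, minus strand) was at 35.0 and 12.9 FPKM in control and at 59.1 and 17.0 FPKM in knockout visceral endoderm. In epiblast it was at 3.22 FPKM in control replicate 1, at 0.081 FPKM in control replicate 2 and listed at 0 in both knockout libraries. It was listed at 0 or at 0.029 FPKM in extraembryonic ectoderm. The log2 fold change against epiblast was 4.22 ± 0.52 (SE; limma adjusted p = 2.03e-04), and the visceral endoderm libraries again split by replicate, with replicate 1 above replicate 2 in each genotype.

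Dkk1 (chromosome 19, 30545863 to 30549665, minus strand) was at 74.9 and 25.3 FPKM in control and at 65.3 and 54.1 FPKM in knockout visceral endoderm. It was at most 0.18 FPKM in the other lineages. Its log2 fold change against epiblast was 5.54 ± 0.33 (SE; limma adjusted p = 2.29e-06).

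Lefty1 (chromosome 1, 180935022 to 180938400, plus strand) went the other way. It was at 1.12 and 0.042 FPKM in control and at 3.67 and 0 FPKM in knockout visceral endoderm, and at 6.78 and 1.93 FPKM in control and 4.09 and 9.29 FPKM in knockout epiblast. The lineages overlapped, since knockout replicate 1 of visceral endoderm lay above control replicate 2 of epiblast. The log2 fold change was -1.71 ± 0.57 (SE), with a limma adjusted p of 0.0378. The call was lost when any 1 of 5 libraries was left out: control replicate 1 (-1.36, adjusted p = 0.125) or knockout replicate 2 (-1.46, 0.0876) of epiblast, control replicate 1 (-1.97, 0.0539) or 2 (-1.46, 0.130) or knockout replicate 2 (-1.16, 0.134) of visceral endoderm. Against extraembryonic ectoderm the log2 fold change was 0.34 ± 0.63 (SE; adjusted p = 0.763), and without knockout replicate 1 of visceral endoderm it was -0.21. Lefty2, a near-identical neighbour whose reads could be assigned to either gene, was at most 0.0085 FPKM in visceral endoderm and between 0.26 and 6.31 FPKM in epiblast.

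Amn and Dab2 were the most abundant members. Amn (chromosome 12, 111271095 to 111276426, plus strand) was at 566.8 and 569.6 FPKM in control and at 631.2 and 462.1 FPKM in knockout visceral endoderm. It was at 0.83 to 3.31 FPKM in epiblast and at 6.76, 4.90 and 3.92 FPKM in control, knockout replicate 1 and knockout replicate 2 of extraembryonic ectoderm. Its log2 fold change was 7.66 ± 0.28 against epiblast and 6.42 ± 0.31 (SE) against extraembryonic ectoderm, with limma adjusted p of 1.75e-07 and 9.64e-07.

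Cubn (chromosome 2, 13276338 to 13491813, minus strand, 66 merged exons) was at 53.6 and 196.8 FPKM in control and at 122.6 and 143.1 FPKM in knockout visceral endoderm. It was at most 0.12 FPKM in epiblast and at most 0.28 FPKM in extraembryonic ectoderm. Its log2 fold change against epiblast was 6.77 ± 0.37 (SE; limma adjusted p = 1.35e-06). The antisense gene Gm13270 overlaps its 3′ part and was at most 2.51 FPKM in any day 6.5 library.

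Dab2 (chromosome 15, 6299788 to 6440712, plus strand) was at 939.5 and 538.6 FPKM in control and at 1194 and 615.1 FPKM in knockout visceral endoderm. It was at 2.13 to 6.27 FPKM in epiblast and at 0.30 to 1.83 FPKM in extraembryonic ectoderm. Its log2 fold change was 7.40 ± 0.35 against epiblast and 8.56 ± 0.40 (SE) against extraembryonic ectoderm, with limma adjusted p of 7.80e-07 and 8.64e-07. As for Sox17 and Cer1, replicate 1 was the higher visceral endoderm library in both genotypes.

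**Figure D2:**
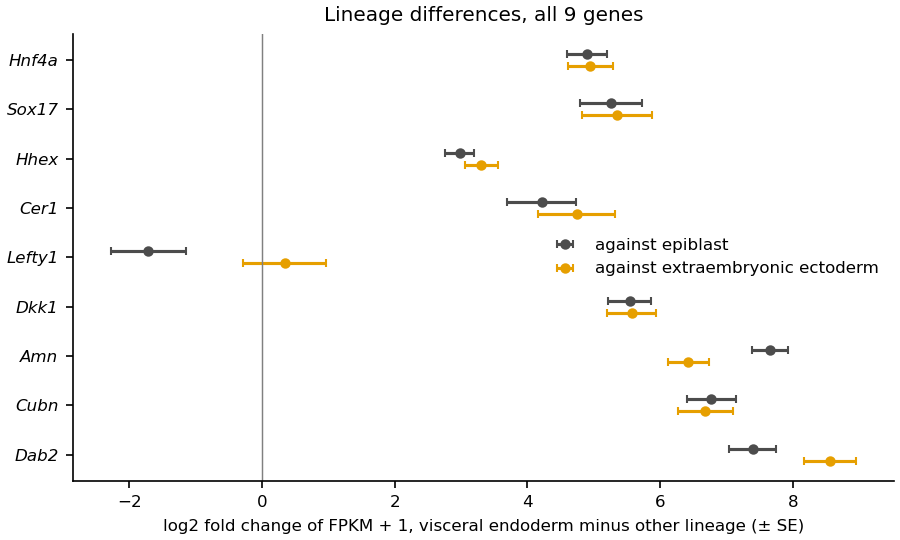
Log2 fold change of FPKM + 1 between visceral endoderm and each other lineage for the 9 genes, with bars of 1 SE from limma. Amn, Dab2 and Cubn lie farthest to the right, Hhex is the lowest of the 8 genes called higher, and Lefty1 lies at -1.71 against epiblast and 0.34 against extraembryonic ectoderm.

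Over the 4 visceral endoderm libraries the mean levels fell from Dab2 (822 ± 303 FPKM, SD, n = 4) through Amn (557 ± 70.2), Cubn (129 ± 59.2), Dkk1 (54.9 ± 21.5), Sox17 (51.0 ± 32.1), Hnf4a (31.9 ± 13.1), Cer1 (31.0 ± 21.03) and Hhex (10.5 ± 2.37) to Lefty1 (1.21 ± 1.72). The ranges of neighbours in this order overlapped except between Amn and Cubn and between Hhex and Lefty1. The endocytic genes thus formed the upper end, and the receptor subunit Cubn was below its partner Amn in each of the 4 libraries.

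The visceral endoderm libraries differed among themselves along the members. From replicate 2 to replicate 1 the log2(FPKM + 1) difference of Sox17 was 2.32 in control and 1.16 in knockout, that of Cer1 1.37 and 1.74, that of Lefty1 1.02 and 2.22, and that of Dab2 0.80 and 0.96. The differences of Dkk1 (1.53 and 0.27) and Hhex (0.56 and 0.34) had the same sign. Hnf4a (-1.20 and -0.69) and Cubn (-1.86 and -0.22) were lower in replicate 1, and Amn hardly differed in control (-0.01) and was higher by 0.45 in knockout. Y-linked transcripts were detected in control replicate 1 and knockout replicate 2, and the part of embryo sex in these differences was not tested. In the control pair, genes with exons of 5000 bp or more in all had a median difference of -0.25 and genes under 2000 bp one of 0.13, while in the knockout pair these medians were 0.05 and -0.14. The part of transcript length in the difference of Cubn, whose exons span 14935 bp, was not tested.

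The genes most like each member were ranked by Pearson's r of log2(FPKM + 1) over the 11 day 6.5 libraries, among 7005 genes whose mean was 5 FPKM or more. These values are a description, since the points share lineages and most of the variance lies between them. Hnf4a was most like Cdhr2 (r = 0.9991), Cldn2 and Tbx3, and Cubn was most like Tbx3 (r = 0.9988), Muc13 and Lect2. Sox17 was most like Dhrs11, Fmo1 and Arid3c (0.987 to 0.995), Hhex like Cdo1, Soat2 and Fmo1 (0.995 to 0.996), and Dkk1 like Fmo1, Dhrs11 and Ang (0.995 to 0.996). Amn was most like Ctsh, Tcn2 and Sh3bp5 (0.992 to 0.994), of which Tcn2 encodes the cobalamin carrier transcobalamin. Dab2 was most like Cdo1, Car7 and Lrpap1 (0.993 to 0.995), the last a chaperone of endocytic receptors. Cer1 was most like Srgn, Pga5 and Porcn (0.970 to 0.980). Lefty1 stood apart, with Mycl, Traf4 and Plekha1 at 0.904 to 0.928 and no gene at 0.95 or above, where the other members had between 39 and 190 such genes. Between the members, r was 0.997 for Hnf4a and Cubn and 0.994 for Sox17 and Dkk1, and it lay between -0.43 and -0.15 for Lefty1 and each of the others.

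Related genes were compared between visceral endoderm and epiblast as lists. Of all genes tested, 16.8% were called higher in visceral endoderm in this comparison and 21.6% lower. Of 11 other visceral endoderm transcription factors tested, 11 were called higher and 0 lower, with a median log2 fold change of 2.40 against -0.20 over all genes. Of 12 other anterior visceral endoderm genes, 6 were called higher and 3 lower (median 0.85). The largest change of that list was in Otx2, a head organizer factor that epiblast also expresses, which fell from 56.1 to 89.8 FPKM in epiblast to 1.29 to 7.19 FPKM in visceral endoderm (-3.87 ± 0.39, SE; limma adjusted p = 5.55e-05).

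Of 14 Nodal pathway genes tested, 1 was called higher and 5 lower in visceral endoderm than in epiblast (median -0.69). The shares over all genes were 16.8% higher and 21.6% lower. The Nodal co-receptor gene Tdgf1 fell by 6.92 on the log2 scale (SE 0.60; limma adjusted p = 2.19e-05) and was at most 0.17 FPKM in visceral endoderm. Of 10 Wnt genes tested, 1 was called higher and 3 lower (median -0.04). Lef1, a transcription factor and target of Wnt signalling, fell by 4.13 (SE 0.28; limma adjusted p = 4.75e-06). Of 16 endocytic partners of the cubam receptor and DAB2, 7 were called higher and 0 lower (median 0.69). Myo6, the endocytic motor that binds DAB2, rose most of that list, from 0.69 to 0.83 FPKM to 24.4 to 58.7 FPKM (4.55 ± 0.28, SE; limma adjusted p = 2.70e-06). Lrp2, which encodes megalin, the receptor that works with cubilin, was at 12.9 to 36.7 FPKM in visceral endoderm and 1.84 to 2.85 FPKM in epiblast and was named after its values were seen. Against extraembryonic ectoderm, 11.3% of all genes were called higher and 11.3% lower. There 9 of the transcription factors were called higher and 1 lower, and 7 and 1 of the other anterior genes. The Nodal genes had 4 higher and 4 lower (median -0.10), the Wnt genes 3 and 2, and the endocytic partners 5 and 1.

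**Figure D3:**
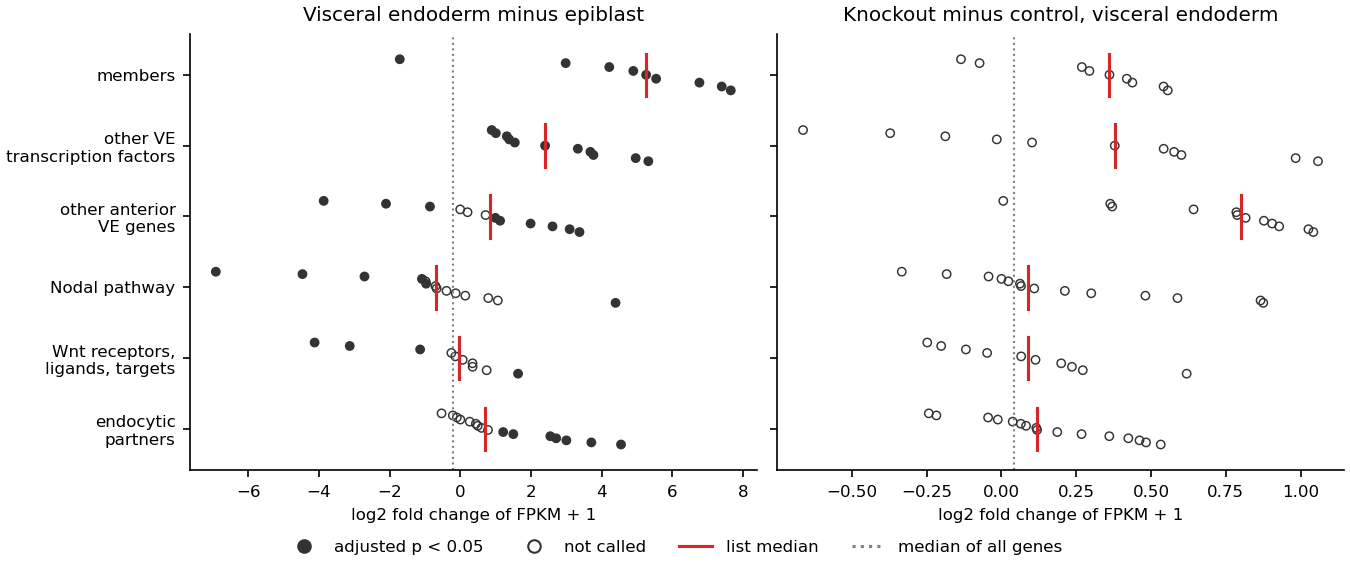
Log2 fold change of FPKM + 1 of each tested gene of the members and 5 related lists, between visceral endoderm and epiblast (left) and between knockout and control visceral endoderm (right), with filled points for calls, red bars for list medians and a dotted line for the median of all genes. On the right no point is filled, and the median of the other anterior genes lies at 0.80.

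The second comparison asked whether embryos from Bap1-deleted oocytes differ in these genes at day 6.5. In visceral endoderm, 0 of the 9 members were called (limma, adjusted p = 1 for each, and 0 at an unadjusted p under 0.05), and control and knockout libraries overlapped for all 9. Over all 13914 genes, 0.00719% were called in either direction, which was 1 gene, Gm44805, and 248 genes had an unadjusted p under 0.05. The log2 fold changes of the members ran from -0.14 ± 0.43 (SE) for Hnf4a to 0.56 ± 0.74 for Cer1, and 7 of the 9 were above 0. Their median was 0.36 against 0.04 over all genes.

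The 95% intervals show what 2 libraries a group could resolve. They were -0.41 to 1.00 for Hhex, -0.95 to 0.81 for Amn, -1.10 to 0.83 for Hnf4a, -0.60 to 1.48 for Dkk1, -0.85 to 1.39 for Dab2 and -0.81 to 1.53 for Cubn. Those of Sox17 (-1.08 to 1.91), Cer1 (-1.10 to 2.22) and Lefty1 (-1.25 to 2.34) were the widest. Every interval held 0, and the missing call does not show that the genotypes were alike. The sign turned when 1 library was left out for every member other than Hhex, and the values stand in the closing section. Marker lists moved in the same libraries, where 14.4% of all genes were higher in the knockout without overlap and 9.87% lower. Of 9 parietal endoderm markers, 6 were higher without overlap and 0 lower, and their sums were 1130 and 795 FPKM in control and 1439 and 1170 FPKM in knockout. Among the 6, Plat and Thbd did not pass the filter on low values, so the shares over all genes leave them out. Their lowest knockout values were 0.912 and 0.072 FPKM, against highest control values of 0.846 and 0 FPKM. Of 8 primitive streak and mesoderm markers, 4 (Eomes, Evx1, Fgf8 and Mixl1) were higher without overlap and 2 (Mesp1 and Wnt3) lower, and their sums were 57.2 and 46.7 FPKM in control and 115.3 and 83.9 FPKM in knockout. Mesp1 did not pass the filter either. Over the visceral endoderm libraries Mixl1 was at 12.5 to 34.5, Fgf8 at 9.13 to 44.4 and Eomes at 9.44 to 22.7 FPKM. Wnt3 was at 7.22 to 10.2 and Evx1 at 2.47 to 7.49 FPKM. The rest of that list was lower, with T at most 1.03, Tbx6 at most 0.27 and Mesp1 at most 0.038 FPKM. Of 8 visceral endoderm markers, 1 was higher without overlap and 1 (Rbp4) lower. By sign alone, 1 of the 8 had a log2 fold change above 0, with a median of -0.18 against 0.04 over all genes. The part of these lists in the members' values was not tested.

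The related lists also held 0 calls in visceral endoderm. All 12 other anterior visceral endoderm genes had a log2 fold change above 0, with a median of 0.80, as against 0.04 over all genes. Among them Lefty2 was at most 0.0085 FPKM in visceral endoderm, so its sign rests on a value near the floor. The share of all genes with a value above 0 was not counted, and the shared sign is a description only. The 6 tested primitive streak and mesoderm markers had a median of 0.95 in the same comparison, with 4 above 0. Eomes is in both lists, and the part of these markers in the values of the anterior genes was not tested. Sfrp1, a secreted Wnt antagonist, was at 4.50 and 6.07 FPKM in control and at 10.1 and 13.9 FPKM in knockout visceral endoderm (1.04 ± 0.41, SE; limma adjusted p = 1). Foxa1, a forkhead factor of endoderm, had the largest value of the transcription factors, at 0.84 and 1.30 FPKM in control and 2.98 and 3.604 FPKM in knockout (1.06 ± 0.24, SE; limma adjusted p = 1). The largest values of the other lists were 0.87 for Furin, 0.62 for Tcf7l1 and 0.53 for Ap2m1, each with a limma adjusted p of 1.

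In epiblast and extraembryonic ectoderm 0 of the 9 members were called for the knockout, as were 0 of all 13914 genes (0.0%; limma, with 469 and 251 genes at an unadjusted p under 0.05). In epiblast, Hnf4a, Hhex, Cer1 and Dkk1 were lower in both knockout libraries than in both controls, all at low levels, where 9.29% of all genes were lower without overlap. Cer1 had the largest value, -1.10 ± 0.74 (SE), which rested on control replicate 1: without it the value was -0.11. Beside these, 5 of the 8 visceral endoderm markers (Afp, Apoa1, Apoa4, Trf and Ttr) were lower in the knockout epiblast libraries without overlap, with Afp at 0.77 and 1.35 FPKM in control and 0.076 and 0.019 FPKM in knockout. The summed level of the 8 markers was 101 to 208 FPKM in epiblast, of which Apoe alone was 98.4 to 205 FPKM. The highest sum was in knockout replicate 1. The part of these markers in the members' values was not tested.

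Lefty1 in epiblast had a log2 fold change of 0.60 ± 0.80 (SE; limma adjusted p = 1). Dab2 and Amn in epiblast were at -0.29 ± 0.50 and 0.41 ± 0.39. In extraembryonic ectoderm, where the single control library was assumed to vary like the other groups, Dab2 was at -0.91 ± 0.61, Amn at -0.53 ± 0.48 and Lefty1 at 0.40 ± 0.98 (SE; limma adjusted p = 1 for each). There 6 members (Sox17, Cer1, Dkk1, Amn, Cubn and Dab2) were lower in both knockout libraries than in the control, as were 35.5% of all genes, and 2 (Hnf4a and Hhex) were higher, as were 30.5%. Of the 8 visceral endoderm markers 7 were lower in both, and their part in the members' values was not tested. When the knockout effect in visceral endoderm was tested against that in epiblast, limma called 0 of 9 members and 0.00719% of all genes (255 genes at an unadjusted p under 0.05). The members' differences ran from -0.48 ± 0.55 for Amn to 1.65 ± 1.05 (SE) for Cer1.

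**Figure D4:**
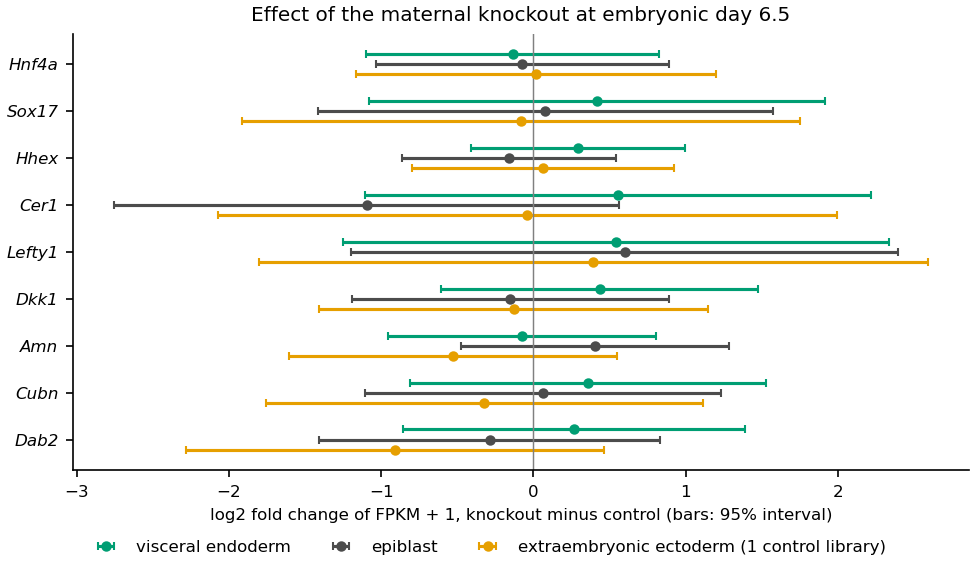
Log2 fold change of FPKM + 1 between knockout and control for the 9 genes in each day 6.5 lineage, with bars for the 95% interval from limma. Every interval crosses 0, and those of Cer1, Lefty1 and Sox17 are the widest.

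The third comparison followed the members in oocytes, eggs and early embryos, before the visceral endoderm forms. Only Dab2 and Hhex passed the filter on low values (1 FPKM or more in 2 or more libraries of a stage), and the other 7 members did not exceed 0.95 FPKM in any of the 26 libraries. Dab2 was lower in the knockout in FGO, MII and L1C and no longer lower in L2C. Hhex was called higher in the knockout in E2C. Cubn, although below the filter, was lower in every knockout library than in every control library at all 5 stages.

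In FGO, Dab2 was at 43.4 and 45.9 FPKM in control and at 29.9, 30.5 and 30.2 FPKM in knockout, with a log2 fold change of -0.55 ± 0.07 (SE; limma adjusted p = 0.00713). In MII it was at 42.2 and 41.2 FPKM in control and at 27.6, 30.0 and 33.5 FPKM in knockout (-0.45 ± 0.09; limma adjusted p = 0.0223). In L1C it was at 58.2 and 57.7 FPKM in control and at 40.1, 36.5 and 38.2 FPKM in knockout (-0.59 ± 0.07; limma adjusted p = 0.00269). At these stages no knockout library reached the lowest control. Of all genes tested, 7.0%, 7.84% and 8.71% were called lower in FGO, MII and L1C, and 25.9%, 22.9% and 23.3% were lower without overlap. The L1C call was kept without any 1 library. The FGO call was lost without control replicate 1 (-0.59, adjusted p = 0.0846) or 2 (-0.51, 0.103). The MII call was lost without control replicate 1 (-0.43, 0.152) or 2 (-0.47, 0.150) or knockout replicate 1 (-0.39, 0.0517) or 2 (-0.44, 0.0756).

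In E2C, Dab2 was at 66.3, 64.9 and 79.7 FPKM in control and at 58.5, 50.8 and 55.8 FPKM in knockout. The groups did not overlap, as in 16.3% of all genes, but the difference of -0.34 ± 0.12 (SE) was not called (limma adjusted p = 0.106). In L2C the order was reversed, with 36.3 and 38.2 FPKM in control and 48.3, 39.4 and 39.8 FPKM in knockout (0.18 ± 0.12; limma adjusted p = 0.268), where 31.6% of all genes were higher without overlap. The knockout effect in L2C was tested against each earlier stage in 1 fit of the 26 libraries, a test added after the data were seen. It was higher by 0.73 ± 0.14 than in FGO (limma adjusted p = 6.63e-04), by 0.63 ± 0.14 than in MII (2.34e-03), by 0.77 ± 0.14 than in L1C (3.93e-04) and by 0.53 ± 0.13 than in E2C (5.21e-03). The last was not called in a fit of L2C and E2C alone (adjusted p = 0.0608). The 4 tests share the L2C libraries, and 15.9%, 14.0%, 14.4% and 15.5% of all genes were called higher in them.

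Hhex was between 20.1 and 40.1 FPKM over all 26 libraries. In E2C it was at 25.8, 26.3 and 21.1 FPKM in control and at 37.2, 35.7 and 33.0 FPKM in knockout. The groups did not overlap, and 17.5% of all genes were higher without overlap. The log2 fold change of 0.52 ± 0.13 (SE) had a limma adjusted p of 0.0419, where 4.25% of genes were called higher. The call was lost when any 1 of the 6 libraries was left out (0.42 to 0.58, adjusted p from 0.0625 to 0.1004). At the other 4 stages the value was between 0.13 and 0.33 with limma adjusted p from 0.148 to 0.283, and it was above 0 at each.

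Cubn was at 0.32 and 0.30 FPKM in FGO controls, 0.34 and 0.36 FPKM in MII, 0.35 and 0.40 FPKM in L1C, 0.69, 0.70 and 0.81 FPKM in E2C and 0.95 and 0.68 FPKM in L2C. In the knockout it was listed at 0 in all 3 MII libraries, was at most 0.015 FPKM in FGO, 0.025 FPKM in L1C and 0.031 FPKM in L2C, and was at 0.040, 0.087 and 0.030 FPKM in E2C. These levels are low, and they cannot be set against those of visceral endoderm, which come from another library type normalized separately. Without the filter on low values, among 19.2%, 18.9%, 16.5%, 10.3% and 18.8% of genes that were lower without overlap in FGO, MII, L1C, E2C and L2C, the limma adjusted p of Cubn was 0.0176, 0.0133, 0.0249, 0.0705 and 0.0165. The log2 fold change on the log2(FPKM + 1) scale was -0.38 ± 0.03 in FGO and -0.82 ± 0.11 (SE) in L2C, values that understate the change of so low a gene.

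Hnf4a was at most 0.38 FPKM in the early libraries and was lower in the knockout without overlap in FGO, MII, L1C and E2C. Without the filter on low values, 19.2%, 18.9%, 16.5% and 10.3% of genes were lower without overlap at these stages. In L1C its highest knockout value was 0.1045 FPKM and its lowest control value 0.1051 FPKM. The use of strand in counting is not given in the sources used here. Hnf4aos, the antisense neighbour of Hnf4a, was higher in every knockout library than in the controls in MII (1.33 to 1.73 against 0.70 and 0.97 FPKM) and L1C (1.43 to 1.55 against 1.06 and 1.04 FPKM). Of all genes tested, 24.1% in MII and 26.3% in L1C were higher without overlap. The groups of Hnf4aos overlapped in FGO, where it reached 3.47 FPKM, in E2C and in L2C. Sox17 reached 0.60 FPKM in E2C. In L1C it was also lower in the knockout without overlap, at 0.014 to 0.046 against 0.112 to 0.132 FPKM. Amn reached 0.44 FPKM in L2C, Cer1 0.40 FPKM and Dkk1 0.30 FPKM in E2C, and Lefty1 0.078 FPKM in FGO. Cer1, Dkk1 and Lefty1 were listed at 0 in most of these libraries.

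**Figure D5:**
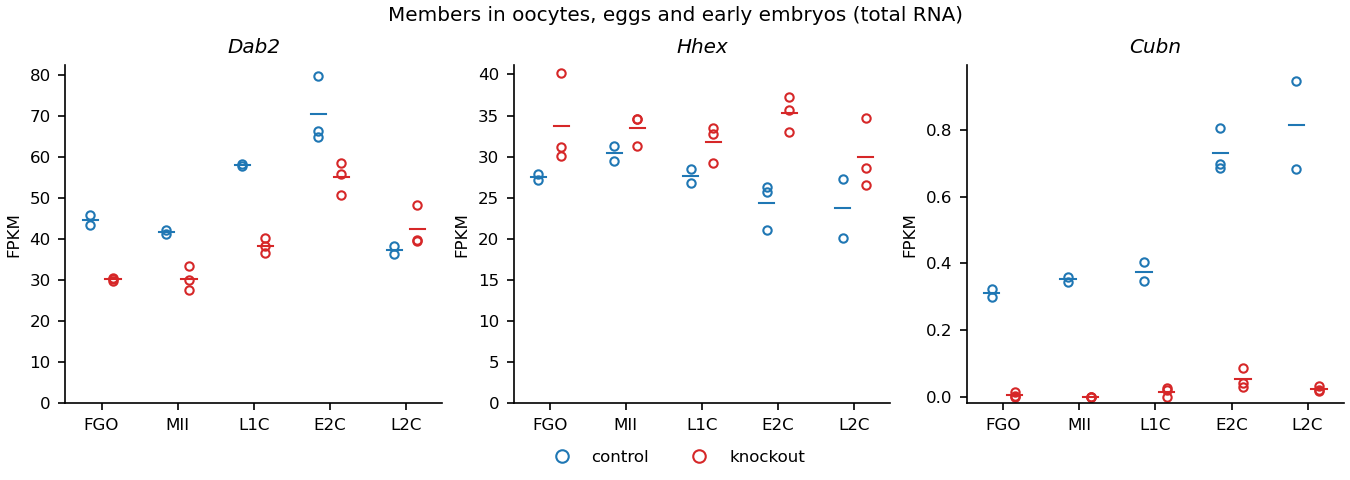
Level in FPKM of Dab2, Hhex and Cubn in every oocyte, egg and embryo library, with bars for group means. Dab2 is lower in the knockout up to E2C and not in L2C, Hhex is higher in the knockout in E2C, and Cubn is under 0.1 FPKM in every knockout library.

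Genes of the related lists were called in both directions in the early knockouts, in 41 calls over the 5 stages (27 higher and 14 lower). Of these calls, 11 were kept without any 1 library. None of the calls in FGO or E2C was among these. Over all genes, 1.34% were called higher in FGO, 4.17% in MII, 6.22% in L1C, 4.25% in E2C and 19.0% in L2C, and in E2C and L2C 5.87% and 19.5% were called lower. Cited2, a transcriptional co-activator of the anterior visceral endoderm list, was lower in the knockout in FGO, MII and L1C (log2 fold changes of -0.92, -1.01 and -0.98, with limma adjusted p of 1.86e-03, 1.36e-03 and 6.26e-04), and the FGO call was lost without control replicate 1 (-0.91, adjusted p = 0.0600) or 2 (-0.94, 0.0565). In L1C it was at 72.3 and 81.2 FPKM in control and at 37.2 to 40.0 FPKM in knockout. Lhx1 in E2C (-1.06, limma adjusted p = 0.0312) and Hesx1 in L2C (-0.79, 0.0275) were the other calls of that list, both under 3 FPKM. Of the transcription factors, Nr5a2 was lower in FGO (-0.42, 0.0357), E2C (-0.62, 0.0255) and L2C (-0.63, 0.0279), Klf4 was higher in MII (0.59, 0.0299) and lower in L2C (-0.92, 8.12e-03), and Gata4 was lower in L2C. Gata4, which encodes a factor needed for visceral endoderm, was at 45.3 and 45.6 FPKM in control and at 21.2 to 22.3 FPKM in knockout L2C embryos (-1.03 ± 0.10, SE; limma adjusted p = 3.50e-04).

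Of the Nodal pathway genes tested (7 or 8 at each stage), 0 were called higher in FGO, 1 in MII, 2 in L1C, 2 in E2C and 3 in L2C, and 1 was called lower, in MII. The convertase gene Pcsk6, whose product cleaves the Nodal precursor, was higher in MII (0.99), L1C (1.06) and L2C (0.95), Furin, another such convertase, in L1C (0.63), E2C (0.92) and L2C (0.78), and the type I receptor gene Acvr1b in E2C (0.78) and L2C (0.91). Smad2, a transducer of Nodal signals, was lower in MII (-1.03, limma adjusted p = 3.36e-03). The Wnt co-receptor gene Lrp6, to whose product DKK1 binds, was higher in MII (0.41), L1C (0.33), E2C (0.60) and L2C (0.70), and Lrp5 in E2C (0.52) and L2C (0.62). Axin2 (0.39) and Tcf7 (0.56) were higher and Ctnnb1, which encodes beta-catenin, lower (-0.87) in L2C, Lef1 was lower in L1C (-0.46), and Tcf7l2 in MII (-0.57).

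Of the 15 endocytic partners tested at each stage, 2 were called higher in MII, 3 in L1C and 5 in L2C, and 0 in FGO and E2C, and 0 were called lower at any stage. Their median log2 fold changes lay between 0.07 and 0.14, against -0.01 to 0.03 over all genes, and the share of all genes called higher was 4.17% in MII, 6.22% in L1C and 19.0% in L2C. The clathrin heavy chain gene Cltc was higher in MII (0.47), L1C (0.50) and L2C (0.55), at 47.1 and 48.5 FPKM in control and 66.4 to 73.6 FPKM in knockout L2C embryos. The others were Ap2b1 in MII (0.32) and L2C (0.59), Clta (0.62) and Lrpap1 (0.43) in L1C, and Ap2s1 (0.80), Eps15 (0.75) and Rab11a (0.58) in L2C, with limma adjusted p between 3.08e-03 and 0.0486 over the 10 calls. The 11 calls kept without any 1 library were those of Cited2 and Smad2 in MII, Cited2 in L1C, and Acvr1b, Cltc, Ctnnb1, Eps15, Gata4, Lrp5, Lrp6 and Rab11a in L2C.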

How the data were processed

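Values were analysed in 11 poly(A) libraries of embryonic day 6.5 and 26 total RNA libraries. The deposited values are FPKM computed by the authors, 1 column per library in 1 table per library type, and the tables were tested separately. Per the labels' protocols, total RNA libraries came from a SMART-Seq Stranded kit and poly(A) libraries from a SMART-Seq mRNA kit with Nextera XT. The submitters' processing notes name Trim Galore 0.6.6, STAR 2.7.9, StringTie 2.1.7 and mm10, with no role or order. In the deposited column of control epiblast replicate 1, an other unit was recorded because 1 value was below 0, and it was set to 0. Low values did not fall on whole reads (at best 13.8% to 33.8% of values within 0.05 of a whole multiple in any library), so the depth is unknown and the number of libraries limits the precision.

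Groups came from the sample titles. Values were tested as log2(FPKM + 1), with genes at 1 FPKM or more in at least 2 libraries of a fit, by limma 3.58.1 in R 4.3.3 on tables joined with pandas 2.3.3 (group means, eBayes with trend, two-sided, Benjamini-Hochberg over all genes of a contrast, threshold 0.05). The 11 day 6.5 libraries were fitted together, and each early stage alone. Fold changes on this scale understate those of low genes. Fits were tested on simulated data. The pairing by replicate number, which the labels do not state, was checked by correlating deviations from group means. Alternatives were another pseudocount, other filters, TPM scaling, quantile normalization, median centring, no trend, replicate blocks, a term for Y-linked transcripts, subsets of libraries and leaving out each library.

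The members and lists (other visceral endoderm transcription factors, other anterior visceral endoderm genes, Nodal pathway, Wnt receptors, ligands and targets, endocytic partners, and markers of visceral endoderm, epiblast, extraembryonic ectoderm, parietal endoderm, primitive streak and mesoderm, maternal decidua and blood) were chosen with earlier results of these data known. Primitive streak and mesoderm markers summed to 15.2 to 88.4 FPKM in epiblast. Named from the lists were the gene that changed most between visceral endoderm and epiblast, that with the largest knockout value in visceral endoderm, and any called for a knockout. One gene that this rule names is not reported here. Positions are from GENCODE M21 (GRCm38) and promoters from RefSeq.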

Additional observations from a re-analysis of the deposited data

Results flagged for a closer look

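In epiblast, 1 value of 18 groups of member and lineage examined stood apart from the rest: Cer1 was at 3.2202 FPKM in control replicate 1, where the other 3 epiblast libraries were at 0.081 FPKM or listed at 0. The rule flags about 1 in 20 groups by chance. In the same library Srgn, the gene most like Cer1 over all lineages, was at 3.88 FPKM, against at most 0.44 FPKM in the other epiblast libraries. That ranking included this library, so the shared high value is partly built into the choice of Srgn and adds no separate support. Srgn is also in the list of parietal endoderm markers.

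In the fit of 26 libraries, a test added after the data were seen, the knockout effect on Dab2 was higher in L2C by 0.7289 (limma adjusted p = 6.63e-04) than in FGO, by 0.6301 (2.34e-03) than in MII, by 0.7657 (3.93e-04) than in L1C and by 0.525 (5.21e-03) than in E2C. The difference from E2C was not called when only those stages were fitted (adjusted p = 0.0608), and 14.0% to 15.9% of all genes were called higher in these tests. Dab2 was lower in all 3 knockout libraries than in every control up to E2C and higher in all 3 in L2C.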

How the results depend on the processing

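The 8 members called higher in visceral endoderm kept that call against both lineages without any 1 library. The call of Lefty1 against epiblast was lost (0 members lower) with a pseudocount of 0.1, with no filter on low values, with quantile normalization and in control or knockout libraries alone, and leaving out 1 library gave 0 to 1. With a mean of at least 5 FPKM the number was also 0, because that filter removed Lefty1 from the test. In early stages the members called lower numbered 2 without the filter in FGO and L1C, 2 with TPM scaling in MII and L1C, 1 with TPM scaling or the fit of 26 libraries in E2C, and 1 without the filter or with TPM scaling in L2C. They numbered 0 in MII without the eBayes trend. A pseudocount of 0.1 without the filter, a setting chosen after the data were seen, gave 2 in FGO, 2 in L1C and 1 in L2C. Leaving out 1 library gave 0 to 1 in FGO and MII. Hhex as the member higher in E2C was lost (0) without the filter, also with a pseudocount of 0.1, without the trend and without any 1 library (0 to 0). The cause was not tested.

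Values that changed sign were all uncalled. For the knockout in visceral endoderm, leaving out 1 library gave -0.74 to 0.47 for Hnf4a, -0.74 to 1.58 for Sox17, -0.31 to 1.42 for Cer1, -0.57 to 1.65 for Lefty1, -0.33 to 1.20 for Dkk1, -0.30 to 0.15 for Amn, -0.57 to 1.29 for Cubn, -0.21 to 0.75 for Dab2 and -0.037 to 1.10 for Ap2m1. Amn was at 0.015 with TPM scaling and 0.093 with quantile normalization. In epiblast the ranges were -0.037 to 0.85 for Amn, -0.79 to 0.22 for Dab2 and -0.10 to 1.30 for Lefty1. Lefty1 ran from -0.26 to 1.05 in extraembryonic ectoderm and from -0.21 to 0.90 between visceral endoderm and extraembryonic ectoderm. Where 1 library was left in a group, it was assumed to vary like the others.

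Replicate numbers were treated as shared numbers only. Deviations of same-numbered control and knockout libraries correlated at 0.61 in epiblast and 0.46 in visceral endoderm. With 2 libraries a group both pairs of a lineage give the same value by construction, so they are not independent. In early stages the correlations were -0.09 to 0.17. Between same-numbered visceral endoderm and epiblast libraries they were -0.30 in control and -0.38 in knockout. Between visceral endoderm and extraembryonic ectoderm the knockout value was -0.36. With a replicate block, Dab2 in FGO had an adjusted p of 0.0728 (0 members lower), Hhex in E2C one of 0.0619 (0 higher) and Lefty1 in extraembryonic ectoderm a value of -0.26. All calls in FGO went from 964 to 105 with the block and in E2C from 1193 to 682.

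Over all genes, calls between visceral endoderm and epiblast went from 5347 to 2821 with a mean of at least 5 FPKM, 3030 in controls and 3539 in knockouts, and against extraembryonic ectoderm from 3140 to 1673 and, in controls, 1353. Knockout calls without the filter went from 0 to 35 in epiblast, 0 to 1426 in extraembryonic ectoderm, 1364 to 882 in MII, 1657 to 762 in L1C, 1193 to 165 in E2C and 4893 to 3180 in L2C. A pseudocount of 0.1 gave 2 in visceral endoderm, 2 in epiblast and 4 in extraembryonic ectoderm, and, without the filter, 588 in FGO, 734 in MII, 670 in L1C and 201 in E2C. The fit of 26 libraries gave 895 in MII and 4407 in E2C. Without 1 library the lowest counts were 15 in FGO, 157 in MII, 238 in L1C, 317 in E2C and 2878 in L2C. TPM scaling moved calls from 2417 higher and 2476 lower to 2981 and 1937 in L2C, where it moved the median of all genes from 0.03 to 0.15, and from 501 and 692 to 621 and 550 in E2C. Centring on library medians moved them from 155 and 809 to 272 and 672 in FGO and from 474 and 890 to 716 and 788 in MII. With depth unknown, no limit from counting could be given.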
